A study of Mus musculus with 31 samples.

Results

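A set of 7 costimulatory, checkpoint and activation molecules of the cell surface was followed across an RNA-seq study of tauopathy: Cd40, Cd80, Cd86, Cd274, Pdcd1lg2, Cd83 and Cd69. They were taken by name from the table of primary microglia and by the same Ensembl identifier from the table of hippocampi, 7 genes of 54532 in the first and of 48795 in the second. In microglia 6 of the 7 had enough reads to be tested, and in hippocampi 4 of the 7.

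The primary microglia came from the cortices of mouse pups at postnatal day 1 to 3, grown as mixed glia with GM-CSF added, and were Cgas+/+ or Cgas-/-. Cells of each genotype received vehicle, 0N4R tau fibrils at 2 μg per ml or herring testis DNA (HT-DNA) at 1 μg per ml for 6 h, with 3 libraries in each of the 6 groups. HT-DNA is a double-stranded DNA ligand of cGAS, and 0N4R is a human tau isoform. The hippocampi came from 6 P301S mice (3 females and 3 males), which carry human tau with the P301S mutation as a transgene driven by the prion promoter, and from 7 non-transgenic (Ntg) mice (3 females and 4 males), at 8 to 9 months of age, 1 library per mouse. The Cgas genotype of these mice is not given for this experiment. The microglial labels do not say whether the 3 libraries of a group came from separate cultures. A legend of the study calls the 3 samples of a group biologically independent, without saying in what respect. The p-values there thus measure only the spread between libraries, which may be technical.

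T cells need a second signal besides antigen, and several of these genes encode parts of it or its regulators. CD80 and CD86 bind CD28, which activates T cells, and CTLA-4, which restrains them. PD-L1 (Cd274) and PD-L2 (Pdcd1lg2) bind the inhibitory receptor PD-1. CD40 receives CD40 ligand from T cells and signals through TRAF adaptors. CD83 keeps MHC class II and CD86 on the cell surface by opposing the ubiquitin ligase MARCH1. CD69 is an early activation antigen that removes the egress receptor S1PR1 from the surface. In microglia several of these molecules are known as markers of activation and as targets of type I interferon and NF-κB.

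Total counts were 17037459 to 25174764 per microglial library and 25953296 to 35779977 per hippocampal library. Cgas itself had 434 to 812 counts in Cgas+/+ and 71 to 180 in Cgas-/- libraries, and which exons those reads fall on is not known. Of 10 microglial markers 9 were detected in every microglial library, with Siglech at or near 0. Their summed level was 4798 to 5039 normalized CPM (counts scaled to the effective size of the library) in Cgas+/+ and 3343 to 3886 in Cgas-/- cells, so all Cgas-/- libraries were lower. Without overlap between genotypes they were also lower in the summed level of 5 oligodendrocyte markers (50.4 to 54.5 against 63.9 to 115 CPM), 10 T cell markers (5.50 to 8.40 against 9.78 to 14.9 CPM) and 4 blood markers (0.0418 to 0.782 against 0.818 to 5.39 CPM). The part of these differences in the results below was not tested. Of 10 T cell markers, Lck and Cd28 alone were detected in all microglial libraries, and Cd3d, Cd3e, Cd8a, Cd8b1 and Trbc2 were at 0 in Cgas+/+ vehicle cells.

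In Cgas+/+ microglia both tau and HT-DNA raised Cd40, Cd69 and Cd274, and HT-DNA also raised Cd86. In Cgas-/- microglia HT-DNA raised none of the 6 genes tested, whereas tau still raised Cd40 and Cd69. Throughout, a gene is called when its adjusted p is under 0.05 and its log2 fold change is beyond 1 in microglia or 0.5 in hippocampi, in edgeR's quasi-likelihood F test with Benjamini-Hochberg adjustment over all genes tested (13675 in microglia), and fold changes are given as log2 ± SE. With tau in Cgas+/+ cells 3 of the 6 tested were called higher and 0 lower, where 3.41% of all genes were called. With HT-DNA in Cgas+/+ cells 4 of 6 were called higher, where 8.08% of all genes were called. The median log2 fold change of the 6 genes was 1.06 with tau and 1.79 with HT-DNA, against -0.01 and -0.03 over all genes tested.

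**Figure D1:**
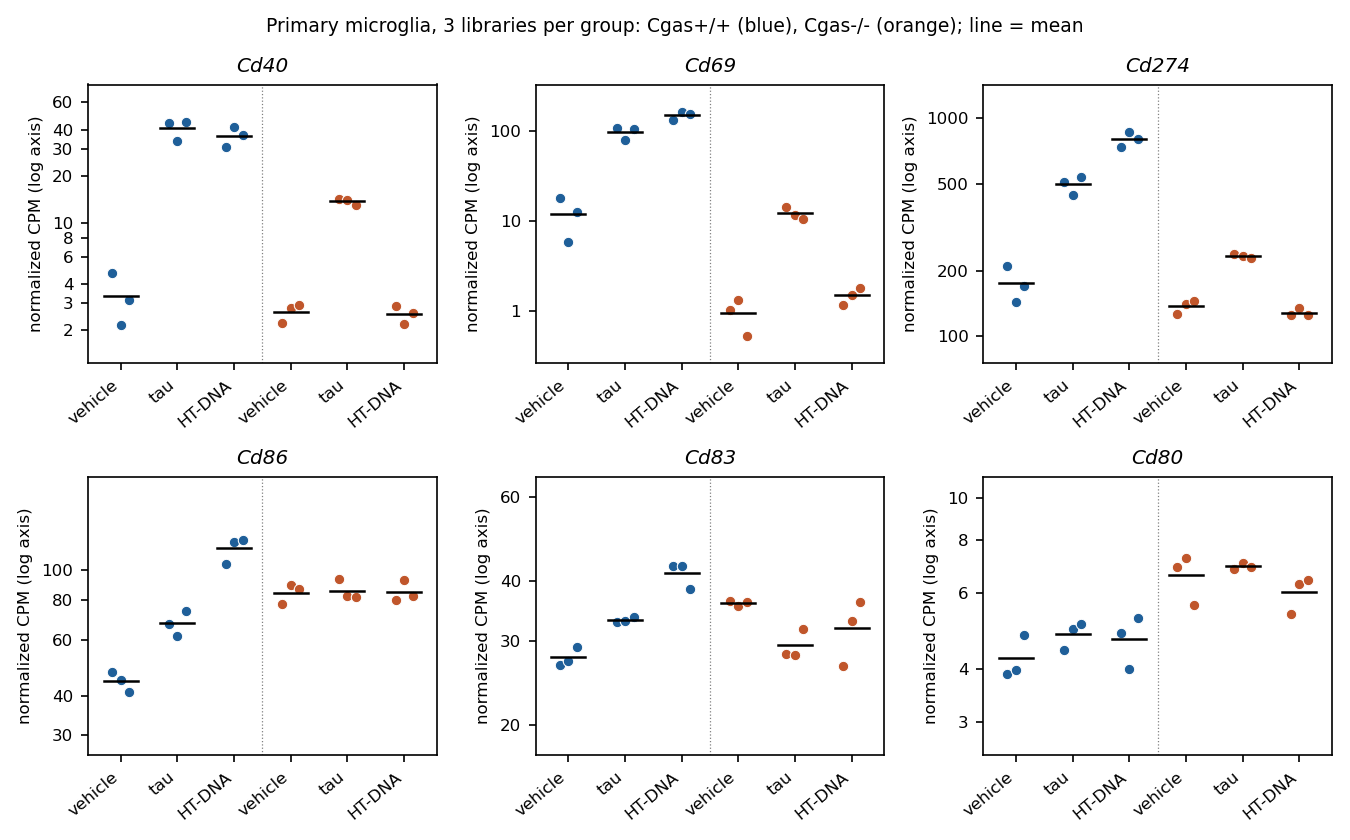
Normalized CPM (log axis) of 6 genes in each microglial library, by treatment, for Cgas+/+ (blue) and Cgas-/- (orange) cells; each point is 1 library and each line the mean of 3. Cd40 stood at 34.0 to 44.9 CPM in tau-treated Cgas+/+ libraries and at 12.9 to 14.3 in tau-treated Cgas-/- libraries, whereas Cd80 stayed between 3.90 and 7.25 in all groups.

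Cd40, the receptor for CD40 ligand (ENSMUSG00000017652, chr2:165055627-165072948, plus strand, GRCm38), was low in resting cells. Vehicle-treated Cgas+/+ libraries had 4.74, 2.16 and 3.13 CPM, tau-treated libraries 44.0, 34.0 and 44.9, and HT-DNA-treated libraries 31.1, 41.4 and 37.2. Every treated library was above every vehicle library, and the tau and HT-DNA libraries overlapped. The rise was 3.61 ± 0.16 with tau (12.2-fold, adjusted p = 5.98e-16) and 3.45 ± 0.16 with HT-DNA (10.9-fold, adjusted p = 2.22e-16). The difference between the treatments was 0.16, with a 95% interval from -0.08 to 0.41 and an adjusted p of 0.322. In Cgas-/- cells the values were 2.23, 2.81 and 2.90 CPM with vehicle, 14.3, 13.9 and 12.9 with tau, and 2.86, 2.21 and 2.59 with HT-DNA. Tau thus raised Cd40 by 2.36 ± 0.18 (5.12-fold, adjusted p = 3.69e-11), to a level between those of resting and tau-treated Cgas+/+ cells, while the HT-DNA and vehicle libraries overlapped (difference -0.08, 95% interval -0.58 to 0.42). In order of mean CPM, the groups were Cgas-/- HT-DNA (2.55), Cgas-/- vehicle (2.65), Cgas+/+ vehicle (3.34), Cgas-/- tau (13.7), Cgas+/+ HT-DNA (36.5) and Cgas+/+ tau (41.0). The 3 lowest groups overlapped, as did the 2 highest.

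Cd69, the early activation antigen (ENSMUSG00000030156, chr6:129267325-129275436, minus strand), differed most between genotypes. Vehicle-treated Cgas+/+ libraries had 17.8, 5.84 and 12.5 CPM, against 108, 79.8 and 106 with tau and 132, 166 and 154 with HT-DNA. The groups did not overlap, and the vehicle libraries spread more widely, relative to their mean, than the treated ones. The rise was 3.03 ± 0.18 with tau (8.16-fold, adjusted p = 2.22e-13) and 3.65 ± 0.18 with HT-DNA (12.6-fold, adjusted p = 6.31e-16). In Cgas-/- cells the values were 1.005, 1.303 and 0.528 CPM with vehicle, 14.3, 11.6 and 10.5 with tau, and 1.17, 1.48 and 1.80 with HT-DNA. These rest on 12 to 25 counts per vehicle library and on 268 to 324 per tau library. Tau raised Cd69 there by 3.70 ± 0.38 (13.03-fold, adjusted p = 8.75e-09), from a base 12.95-fold below that of Cgas+/+ cells to a level, 12.1 CPM, close to the 12.04 CPM of untreated Cgas+/+ cells. With HT-DNA the difference was 0.71, with a 95% interval from -0.51 to 1.92 and an adjusted p of 0.695.

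Cd274, which encodes PD-L1 (ENSMUSG00000016496, chr19:29367455-29388095, plus strand), was well expressed at rest. Vehicle-treated Cgas+/+ libraries had 210, 144 and 170 CPM, tau-treated libraries 509, 443 and 535, and HT-DNA-treated libraries 739, 860 and 796. The groups were separate and in that order. The rise was 1.51 ± 0.09 with tau (2.84-fold, adjusted p = 9.30e-14) and 2.19 ± 0.09 with HT-DNA (4.57-fold, adjusted p = 1.10e-17). In Cgas-/- cells the values were 126, 140 and 145 CPM with vehicle, 239, 234 and 229 with tau, and 125, 135 and 125 with HT-DNA. All tau-treated libraries there were above all vehicle libraries, by 0.77 ± 0.09 (1.71-fold, adjusted p = 5.47e-08), which stays under the minimum fold change for a call. HT-DNA and vehicle libraries overlapped, with a difference of -0.09 and a 95% interval from -0.27 to 0.09.

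Pdcd1lg2, which encodes PD-L2 (ENSMUSG00000016498, chr19:29410919-29471161, plus strand), lies next to Cd274 and on the same strand, but had 0 to 6 counts in every microglial library and was not tested. Vehicle-treated Cgas+/+ libraries had 0, 6 and 1 counts, tau-treated libraries 2, 3 and 1, and HT-DNA-treated libraries 4, 0 and 3. At this depth, 3 counts correspond to 0.125 to 0.163 CPM as a group mean, and a response of Pdcd1lg2 was not detectable.

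The promoter windows of Cd274, Pdcd1lg2 and Cd80 are shown because RefSeq (GRCm38.p6) windows were held for these 3 of the 7 genes. They belong to a member that rose with both treatments, a neighbour that was near 0 and a ligand that did not pass the test. The 250 bases before each start are printed 5′ to 3′ on the gene's strand, which is plus in all 3. Capitals mark matches, on either strand, to an NF-κB-like motif (GGNNNTTCC), an interferon-stimulated response element (GAAANNGAA) or an interferon-gamma activated sequence (TTCNNNGAA), where overlapping matches share their capitals.
Cd274 (chr19:29367188-29367437): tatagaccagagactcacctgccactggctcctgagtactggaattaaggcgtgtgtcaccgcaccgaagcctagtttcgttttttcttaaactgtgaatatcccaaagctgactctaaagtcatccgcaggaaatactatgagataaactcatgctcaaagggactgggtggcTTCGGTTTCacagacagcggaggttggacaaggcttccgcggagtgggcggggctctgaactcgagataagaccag
Pdcd1lg2 (chr19:29410669-29410918): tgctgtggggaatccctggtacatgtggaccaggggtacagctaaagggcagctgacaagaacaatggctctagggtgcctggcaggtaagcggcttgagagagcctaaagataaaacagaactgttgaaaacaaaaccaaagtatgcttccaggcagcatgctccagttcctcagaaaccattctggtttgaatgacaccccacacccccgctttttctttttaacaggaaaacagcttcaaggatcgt
Cd80 (chr16:38458683-38458932): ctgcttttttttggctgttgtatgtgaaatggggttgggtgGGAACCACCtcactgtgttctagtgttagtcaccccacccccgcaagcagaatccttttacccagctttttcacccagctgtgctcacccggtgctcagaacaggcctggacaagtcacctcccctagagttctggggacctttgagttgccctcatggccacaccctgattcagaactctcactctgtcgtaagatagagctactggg

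The response element letters were found at 1 place in the Cd274 window, on the other strand and beginning 76 bases before the start, and the NF-κB-like letters at 1 place in the Cd80 window, also on the other strand and beginning 209 bases before the start. In the letters used here, none of the 3 motifs was found in the Pdcd1lg2 window. The letters of the response element and of the NF-κB-like motif were chosen after longer forms of both had been searched in these windows. Under the longer forms Cd274 had no match, and Pdcd1lg2 and Cd80 had NF-κB-like matches. That of Pdcd1lg2 is not in capitals above, and the contrast between Cd274 and Pdcd1lg2 depends on the letters chosen. Of 32851 RefSeq windows of the same length, 15.7% held the NF-κB-like letters, 7.13% the interferon-stimulated response element and 7.02% the interferon-gamma activated sequence. The matches describe letters in these windows and were not tested as sites. The Cd80 window lies within the first intron of the longest Cd80 transcript of GENCODE M21, before the start of a shorter one.

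Cd86, a ligand of CD28 and CTLA-4 (ENSMUSG00000022901, chr16:36603869-36666081, minus strand), responded to HT-DNA more than to tau. Vehicle-treated Cgas+/+ libraries had 47.4, 44.6 and 41.2 CPM, tau-treated libraries 67.3, 61.7 and 74.2, and HT-DNA-treated libraries 104, 122 and 124. The 3 groups did not overlap. The rise was 1.39 ± 0.08 with HT-DNA (2.63-fold, adjusted p = 6.62e-15). The difference of 0.61 ± 0.08 with tau (adjusted p = 4.41e-07) was under the minimum fold change. In Cgas-/- cells all 9 libraries lay between 77.7 and 93.2 CPM, with 77.7, 89.5 and 86.7 under vehicle, 93.2, 82.4 and 82.0 under tau and 80.5, 92.5 and 82.4 under HT-DNA. Untreated Cgas-/- cells thus stood above tau-treated Cgas+/+ cells, and their 3 groups overlapped.

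Cd80, the second ligand of that receptor pair (ENSMUSG00000075122, chr16:38455561-38496335, plus strand), passed the test under neither treatment. Cgas+/+ libraries had 3.90, 3.98 and 4.80 CPM with vehicle, 4.42, 4.96 and 5.08 with tau, and 4.83, 3.99 and 5.24 with HT-DNA. These groups overlapped. The difference from vehicle was 0.20 with tau (95% interval -0.10 to 0.50, adjusted p = 0.361) and 0.16 with HT-DNA (95% interval -0.15 to 0.46, adjusted p = 0.419). Cgas-/- libraries had 6.92, 7.25 and 5.63 CPM with vehicle, 6.83, 7.04 and 6.92 with tau, and 5.35, 6.30 and 6.44 with HT-DNA. Each lay above every Cgas+/+ library of any treatment.

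Cd83, the partner of MHC class II and CD86 at the surface (ENSMUSG00000015396, chr13:43784775-43803132, plus strand), moved by less than the minimum fold change in all microglial comparisons. Cgas+/+ libraries had 26.7, 27.3 and 29.1 CPM with vehicle, 32.8, 32.9 and 33.6 with tau, and 42.91, 42.97 and 38.4 with HT-DNA. The groups did not overlap, with differences from vehicle of 0.26 ± 0.08 with tau (adjusted p = 0.0137) and 0.58 ± 0.08 with HT-DNA (adjusted p = 4.44e-07). Cgas-/- libraries had 36.4, 35.4 and 36.1 CPM with vehicle, 28.2, 28.0 and 31.7 with tau, and 26.6, 33.0 and 36.1 with HT-DNA. There the tau libraries were all below the vehicle libraries, by -0.29 ± 0.08 (adjusted p = 0.00731), the opposite sign to that in Cgas+/+ cells.

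In the direct comparison of tau with HT-DNA in Cgas+/+ cells, 0 of the 6 genes passed both thresholds in edgeR (3.27% of all genes did), and DESeq2 also called 0. Cd86, Cd274, Cd69 and Cd83 were nevertheless lower with tau in every library and at an adjusted p under 0.05, by -0.79 ± 0.07, -0.69 ± 0.08, -0.62 ± 0.14 and -0.32 ± 0.08. At that adjusted p alone 4768 of all 13675 genes passed. Cd40 and Cd80 overlapped between the treatments. The 2 treatments share their vehicle libraries, so their separate rises are not independent of each other.

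Within Cgas-/- cells 2 of 6 genes were called higher with tau, Cd40 and Cd69, where 2.73% of all genes were called. With HT-DNA 0 of 6 were called by edgeR, where 0.0219% of all genes were called, and 0 by DESeq2. The lowest p of the 6 in edgeR's test was that of Cd83, 0.0415 unadjusted and 0.380 adjusted, with a difference of -0.17 ± 0.08. The median log2 fold change of the 6 genes was 0.42 with tau and -0.09 with HT-DNA, against 0.01 over all genes in both.

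**Figure D2:**
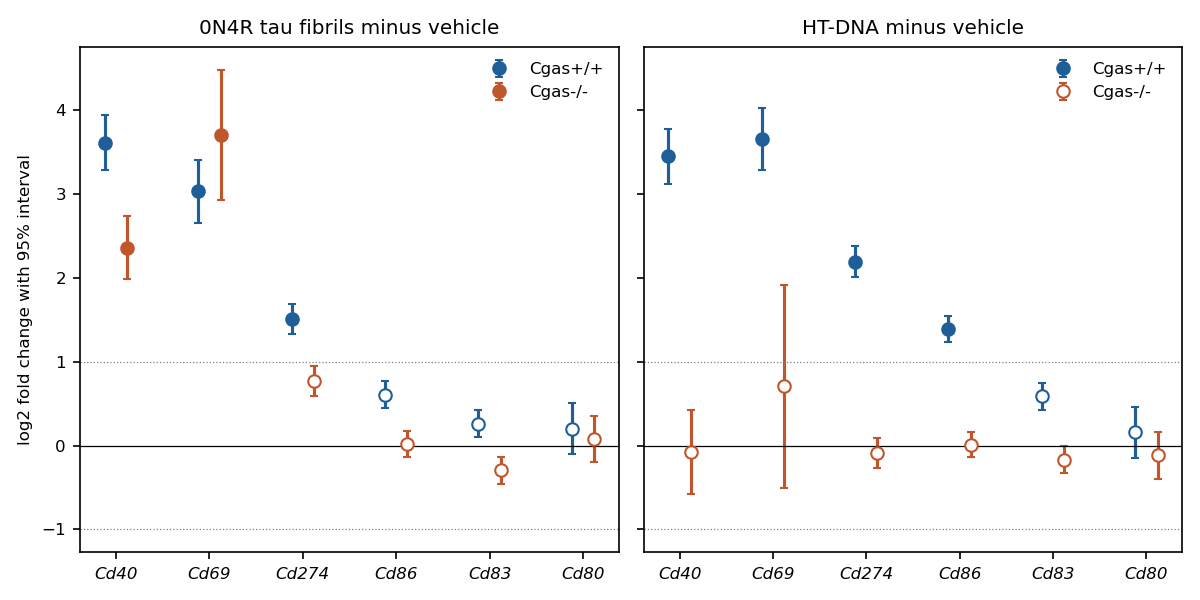
Log2 fold change against vehicle with its 95% interval, for tau fibrils (left) and HT-DNA (right), in Cgas+/+ (blue) and Cgas-/- (orange) microglia; filled points passed both thresholds and dotted lines mark the minimum fold change. With HT-DNA the Cgas-/- points lie between -0.17 and 0.71, and with tau the Cd40 and Cd69 points of Cgas-/- cells lie at 2.36 and 3.70.

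Whether the treatments acted differently in the 2 genotypes was tested as an interaction, called at an adjusted p under 0.05 with no minimum size. The log2 fold change with tau was lower in Cgas-/- cells for 4 of 6 genes, Cd83 having turned negative there, where 6.91% of all genes were called. The differences in log2 fold change were -1.25 ± 0.27 for Cd40 (adjusted p = 0.00358), -0.74 ± 0.12 for Cd274 (0.000181), -0.59 ± 0.11 for Cd86 (0.000698) and -0.56 ± 0.11 for Cd83 (0.00188). For Cd69 the difference was 0.68 ± 0.51, with a 95% interval from -0.38 to 1.73 and an adjusted p of 0.516, and for Cd80 -0.12 ± 0.20. The fold rise of Cd69 with tau was therefore not distinguishable between genotypes, although its level was. Without a filter on low counts the Cd69 interaction had an SE of 0.20 and an adjusted p of 0.0238. The log2 fold change with HT-DNA was lower in Cgas-/- cells for 5 of 6 genes, where 34.0% of all genes were called. The differences were -3.52 ± 0.30 for Cd40, -2.94 ± 0.71 for Cd69, -2.29 ± 0.12 for Cd274, -1.38 ± 0.11 for Cd86 and -0.75 ± 0.11 for Cd83, and that for Cd80 was -0.27 ± 0.20 (adjusted p = 0.319).

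The genotypes also differed without treatment. In vehicle-treated cells 1 of 6 genes was called, Cd69, where 9.98% of all genes were called. Cd69 was lower in Cgas-/- cells by -3.69 ± 0.38 (adjusted p = 3.96e-09), with every Cgas-/- library below every Cgas+/+ library. At an adjusted p under 0.05 but below the minimum fold change, Cd86 was higher by 0.93 ± 0.08, Cd80 by 0.64 ± 0.14 and Cd83 by 0.38 ± 0.08, each without overlap, and Cd274 was lower by -0.35 ± 0.09, with overlap. Cd40 overlapped (-0.33, 95% interval -0.80 to 0.15). At that adjusted p alone 7110 of all 13675 genes passed, so a difference at rest was common among all genes. Within the set, the ligands of CD28 were on the higher side in resting Cgas-/- cells and Cd69 and Cd274 on the lower.

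With tau 3 of 6 genes were called lower in Cgas-/- than in Cgas+/+ cells, where 10.4% of all genes were called, namely Cd69 by -3.02 ± 0.18 (8.11-fold), Cd40 by -1.58 ± 0.13 (2.98-fold) and Cd274 by -1.08 ± 0.08 (2.12-fold). Cd80 and Cd86 remained higher, by 0.52 ± 0.14 and 0.34 ± 0.07, under the minimum. With HT-DNA the same 3 genes were called lower, where 18.1% of all genes were called, Cd69 by -6.64 ± 0.25 (99.7-fold), Cd40 by -3.85 ± 0.17 (14.4-fold) and Cd274 by -2.63 ± 0.09 (6.21-fold). Cd86 was then lower by -0.45 ± 0.07, the opposite sign to its difference at rest. Each genotype's libraries are compared here as labelled, and genotype cannot be told apart from any difference between the litters or cultures that supplied the cells.

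Of 19 other costimulatory and checkpoint ligands, 13 were tested in microglia. With tau in Cgas+/+ cells 3 were called higher and 1 lower, where 3.41% of all genes were called. With HT-DNA 4 were called higher and 0 lower, where 8.08% of all genes were called. The median log2 fold changes of the 13 were 0.48 and 0.51. Tnfsf15, a TNF family ligand that costimulates T cells, rose by 3.90 ± 0.40 with tau and 3.63 ± 0.41 with HT-DNA, from 2 to 15 counts per vehicle library to 77 to 105 and 55 to 86. Tnfsf4, the OX40 ligand, rose by 1.70 ± 0.51 and 1.42 ± 0.52, but on 28 counts or fewer in any library. Icam1, the adhesion ligand of LFA-1, rose with tau by 1.42 ± 0.07, from 64.98 to 67.6 CPM to 159 to 189. Lgals9, which encodes galectin-9, rose with HT-DNA by 1.24 ± 0.05, and Tnfsf9, the 4-1BB ligand, by 1.07 ± 0.17. Vsir, which encodes the inhibitory ligand VISTA, fell with tau by -1.01 ± 0.06, from 225 to 271 CPM to 113 to 136. With HT-DNA it was also lower, at 132 to 138 CPM, but was not called. In Cgas-/- cells Vsir had 247 to 269 CPM with vehicle and 171 to 173 with tau.

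In Cgas-/- cells 5 of these 13 ligands were called higher with tau, where 2.73% of all genes were called. With HT-DNA edgeR called 0, where 0.0219% of all genes were called. At an unadjusted p under 0.05 there were 5, but the share of all genes at that threshold was not counted, so this number cannot be weighed. Tnfsf15 rose with tau by 4.81 ± 0.65, from 0 to 2 counts per library to 28 to 50, Lgals9 by 1.27 ± 0.06 and Icam1 by 1.01 ± 0.07. Tau also raised Lgals9 in Cgas+/+ cells, by 0.71 ± 0.05, under the minimum fold change. Its Cgas-/- libraries went from 57.2 to 59.3 CPM with vehicle to 139 to 143 with tau. The vehicle-treated Cgas+/+ libraries were higher still, at 162 to 193 CPM. Tnfsf15, like Cd40 and Cd69, therefore rose with tau in both genotypes and with HT-DNA in Cgas+/+ cells. The interaction with genotype was called for 3 of the 13 with tau and for 10 with HT-DNA, where 6.91% and 34.0% of all genes were called.

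Of 11 genes that handle or signal for these molecules, all were tested. Traf1, an adaptor in CD40 signaling, rose by 3.79 ± 0.27 with tau, from 11 to 21 counts to 171 to 230, and by 1.32 ± 0.33 with HT-DNA, and the direct difference of 2.46 ± 0.24 between them was called (adjusted p = 2.27e-09). Cmtm6, which keeps PD-L1 at the surface, rose with HT-DNA by 1.01 ± 0.04, from 142 to 162 CPM to 302 to 305. No other gene of this list was called under either treatment in Cgas+/+ cells. Of the receptors that T cells use for these ligands, 2 of 7 were tested in microglia, and neither was called with a treatment. Pdcd1, which encodes PD-1, had 0 to 2 counts in every microglial library.

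Over the 18 microglial libraries Cd40, Cd274 and Cd69 followed each other, with Pearson's r of log2 CPM of 0.946 for Cd40 and Cd274, 0.924 for Cd40 and Cd69, and 0.954 for Cd274 and Cd69. Cd80 correlated with them at -0.285, -0.446 and -0.540, and Cd86 with Cd83 at 0.669. The genes outside the 7 whose levels were most like each were Rab12, Casp4 and Tnfsf15 for Cd40 (r of 0.987, 0.986 and 0.982), Map2k1, Ccl12 and Cd47 for Cd274 (0.995, 0.993 and 0.993), and Ccrl2, Pml and H2-T22 for Cd69 (0.993, 0.992 and 0.992). Those for Cd86 were Pafah1b2, Klf10 and Cycs (0.968, 0.952 and 0.950), for Cd80 Prelid3b, Tmem263 and Itgb1 (0.916, 0.909 and 0.908), and for Cd83 Myl12a, Snap23 and Eif5b (0.832, 0.823 and 0.823). Cd47 encodes another inhibitory surface ligand, read by SIRPα on phagocytes. The points share the 6 group means, and the values are descriptions.

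In hippocampi Cd40, Cd80, Cd86 and Cd274 were far scarcer than in any microglial library, and Cd69 far scarcer than in Cgas+/+ microglia. Cd83, at 13.6 to 31.6 CPM in P301S mice, overlapped the microglial libraries. The high values of Cd274, Cd86 and Cd69 lay in 4 of the 6 P301S mice, whereas the highest Cd40 value was in an Ntg mouse. Cd274 was called higher (1 of 4 genes tested, where 1.36% of all 16453 genes tested were called), Cd86 missed the threshold, and Cd69 was detected in P301S mice alone. In whole tissue, fewer cells of a type and less RNA per cell cannot be told apart. Transgenic status was visible in Mapt, at 858 to 1125 CPM in P301S and 519 to 642 CPM in Ntg mice.

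**Figure D3:**
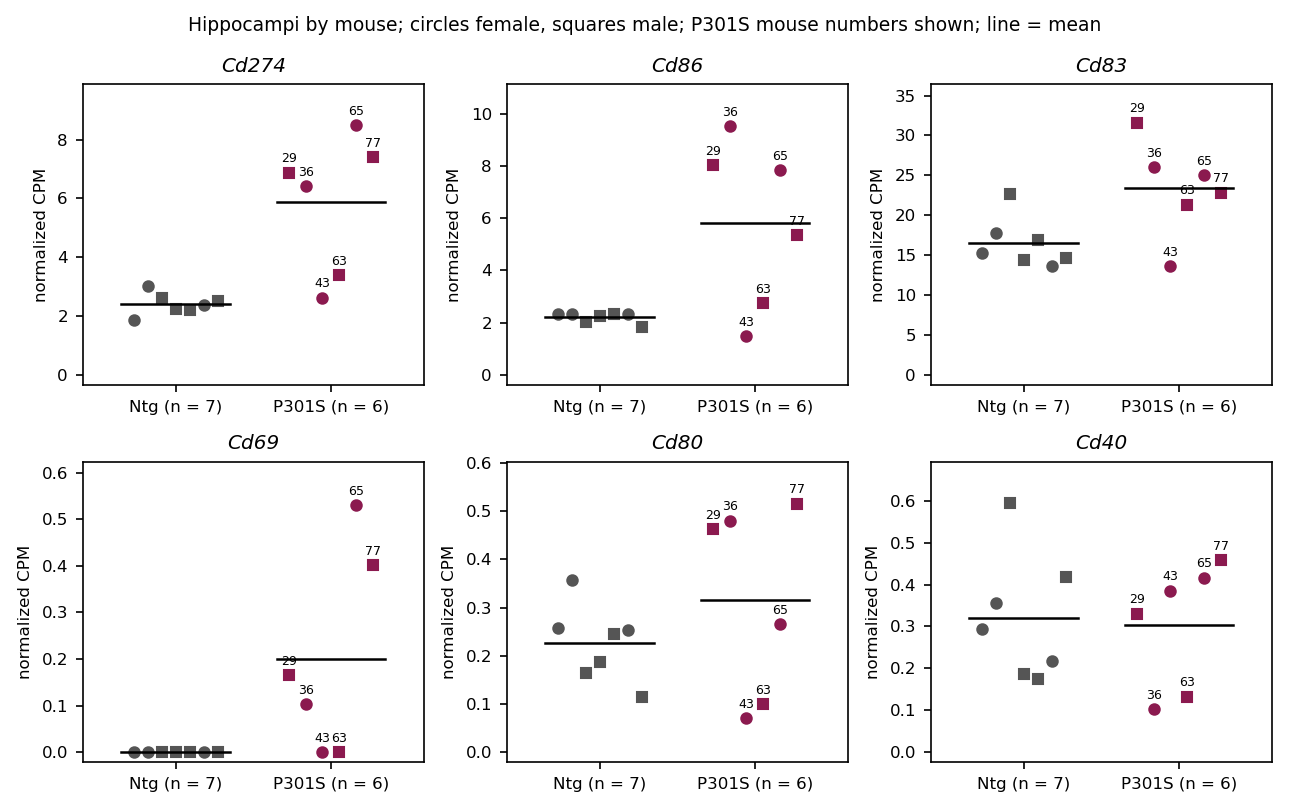
Normalized CPM of 6 genes in each hippocampus of Ntg and P301S mice; circles are females, squares males, lines group means, and P301S points carry their mouse number. Mice 43 and 63 lie below the other 4 P301S mice for Cd274 (2.63 and 3.40 CPM), Cd86 (1.47 and 2.74 CPM) and Cd69 (0 CPM).

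Cd274 had 1.88, 2.39 and 3.03 CPM as the lowest, median and highest value of the 7 Ntg mice. The P301S mice had 6.87 CPM (mouse 29), 6.41 (36), 2.63 (43), 3.40 (63), 8.49 (65) and 7.40 (77). Mouse 43 lay within the Ntg range, and the other 5 above it. The difference was 1.28 ± 0.24 (2.43-fold, adjusted p = 0.0303). It was found in both sexes, at 5.84 ± 2.97 CPM (SD, n = 3) in P301S females against 2.43 ± 0.58 (n = 3) in Ntg females and at 5.89 ± 2.17 (n = 3) against 2.39 ± 0.20 (n = 4) in males. The call was lost in 9 of the 13 fits that left out 1 mouse each, and over all 13 the adjusted p lay between 0.00131 and 0.0859 and the log2 fold change between 1.14 and 1.43. These fits called 14 to 652 of all genes.

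Cd86 had 1.82, 2.32 and 2.35 CPM as the lowest, median and highest value in Ntg mice. In P301S mice it had 8.03 (mouse 29), 9.54 (36), 1.47 (43), 2.74 (63), 7.84 (65) and 5.36 (77). Mouse 43 was the lowest of all 13 mice, and the other 5 were above every Ntg mouse. The difference was 1.40 ± 0.33 (2.65-fold) with an adjusted p of 0.0510, and it passed with DESeq2 (0.00186) and with RLE scaling (0.0493). Cd83 ranged from 13.7 to 22.7 CPM with a median of 15.2 in Ntg mice and from 13.6 to 31.6 with a median of 23.9 in P301S mice, with overlap (0.51 ± 0.17, adjusted p = 0.136).

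Cd69 had no read in the 7 Ntg mice, where a count of 0 allows up to 3 counts, a mean of 0.103 CPM. In P301S mice it had 5 (mouse 29), 3 (36), 0 (43), 0 (63), 14 (65) and 14 (77) counts. The 3 counts of mouse 36 are no more than that bound. Cd69 was too low for the fit. The exact two-sided permutation test over mice gave p = 0.0210, or 0.0420 adjusted over the 2 members tested this way and not over all genes. Cd69 entered this test only because P301S mice 65 and 77 reached 10 counts. Its choice thus used the group where it was high, and the p is a description only. Left without any 1 of the Ntg mice, the exact p was 0.0606. Cd80, tested the same way, had 3 to 12 counts in Ntg and 2 to 18 counts in P301S mice (exact permutation p = 0.287), and 1716 regroupings allow no p below 0.000583. Cd40 rose more than any other member in tau-treated Cgas+/+ microglia. In hippocampi it had 5 to 18 counts in Ntg and 3 to 16 in P301S mice (difference -0.07, 95% interval -0.90 to 0.76). A rise of that size in the reads of the whole tissue lies outside the interval. Whether Cd40 rose within the microglia of these mice cannot be told from whole tissue and was not tested. Pdcd1lg2 had 0 to 5 counts and was not tested.

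Mice 29, 36, 65 and 77 also had the most reads of the PD-1 receptor gene. Pdcd1 had 105, 132, 74 and 37 counts in these mice, 3 and 7 in mice 43 and 63, and 0 to 5 in Ntg mice. Cd28 and Ctla4 had at most 13 and 3 counts in any mouse. The summed level of the 10 T cell markers was 3.57 to 4.56 CPM in Ntg and 3.86 to 10.4 CPM in P301S mice, highest in mice 29 and 65. Cd3e had 13, 12, 12 and 5 counts in mice 29, 36, 65 and 77, at most 2 in the other P301S mice and at most 3 in Ntg mice. Cd8a followed, at 15, 5, 12 and 16 counts against at most 2. The part of T cells in the Cd69 reads was not tested.

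The 10 microglial markers, all detected in every mouse, summed to 358 to 439 CPM in Ntg mice, to 835, 819, 836 and 571 CPM in mice 29, 36, 65 and 77, and to 344 and 393 CPM in mice 43 and 63. With their mean log2 CPM as a covariate the difference in Cd274 was 0.64 ± 0.17 with an adjusted p of 0.327, and 0 members were called, in a fit that called 10 of all genes against 223 without the covariate. Of the other ligands 12 were tested in hippocampi and 3 called higher, where 1.36% of all genes were called. These were Cd48 by 2.36 ± 0.46, Icam1 by 1.76 ± 0.36 and Lgals9 by 1.15 ± 0.26.

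**Figure D4:**
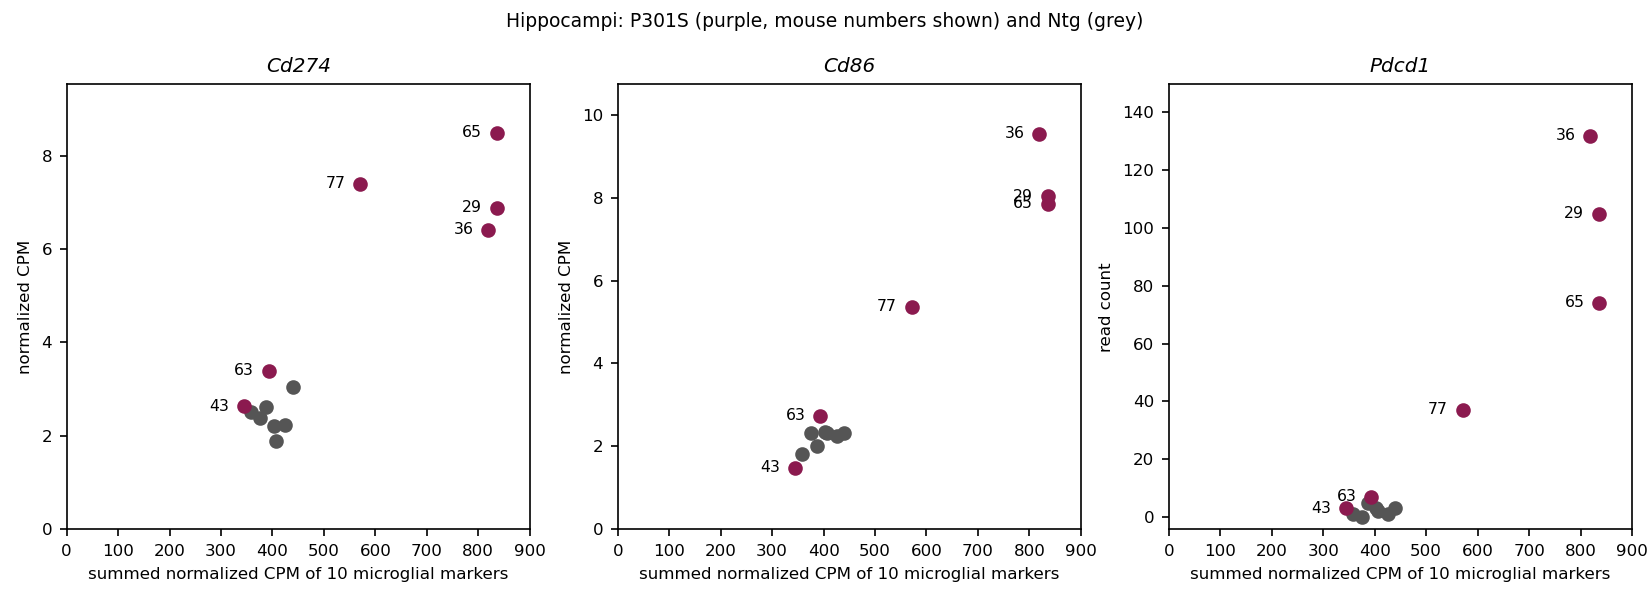
Cd274 and Cd86 (normalized CPM) and Pdcd1 (read count) against the summed normalized CPM of 10 microglial markers, 1 point per mouse, P301S in purple with mouse numbers and Ntg in grey. Mice 29, 36, 65 and 77 lie at 571 to 836 on the horizontal axis in all 3 panels, and mice 43 and 63 lie at 344 and 393, below those 4 mice on all axes.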

How the data were processed

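The authors deposited raw read counts per Ensembl gene, without normalization, for 13 hippocampi and 18 primary microglial libraries. Per the labels' processing notes the genome build was GRCm38 and edgeR and limma were used; the aligner, the counting tool and its annotation are not given in the sources used here. For hippocampi the labels give a 3′-end library and RNA reagents that differ from those in the study's methods. Samples were grouped by their labels, and 0 columns belonged to other samples. Names of 27 genes that a spreadsheet had turned into dates were restored, and Mb21d1 was read as Cgas.

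Counts were tested with edgeR 4.0.16 in R 4.3.3 (filterByExpr, TMM scaling, quasi-likelihood F test, 1 fit per table over all its groups), and normalized CPM are edgeR's CPM on TMM-scaled library sizes. SEs were derived from the F statistic. Members that the filter removed in hippocampi and that reached 10 counts in any mouse were compared by an exact permutation test over mice. Correlations used log2(CPM + 0.5). Gene positions came from GENCODE M21. The named genes were the 7 members, the listed ligands and handling genes called with tau or HT-DNA in Cgas+/+ cells (at most 6 per list) and, per member, the 3 genes with the highest correlation; the others were named after their values were seen. The members, lists and tests were chosen with earlier results of these data known. The tests were tried on simulated data. Alternatives were DESeq2 1.42.0, RLE scaling, no filter, no minimum fold change, each library left out, the replicate block and only the compared groups (microglia), sex or microglial markers as covariates (hippocampi) and, chosen after seeing the data, library totals. Floors on counts cover counting error only, whereas the 95% intervals of fold changes come from the fit and include the spread between libraries. The values of 1 listed marker gene are not reported here.

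No 2 libraries of a group agreed within sampling noise (chi-square per degree of freedom 2.32 to 125 over 54 pairs). Among microglia, Cgas-/- HT-DNA library 1 stood apart, at 22.4 and 28.0 against libraries 2 and 3, which had 4.16 between them. The other microglial groups reached at most 10.7. Without that library 0 members were still called with HT-DNA in Cgas-/- cells. Same-numbered microglial libraries deviated together in 1 of 45 pairs (r over 0.1), so the numbers were not taken to pair them.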

Additional observations from a re-analysis of the deposited data

Results flagged for a closer look

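The responses of the members to treatment that differed between genotypes were flagged by the interaction test, with the difference in log2 fold change (Cgas-/- minus Cgas+/+) as the value. For tau it was -1.25 for Cd40, -0.74 for Cd274, -0.59 for Cd86 and -0.56 for Cd83. For HT-DNA it was -3.52 for Cd40, -2.94 for Cd69, -2.29 for Cd274, -1.38 for Cd86 and -0.75 for Cd83. In Cd86 the flagged difference goes with a base that was already higher in Cgas-/- cells (84.6 CPM against 44.4 CPM with vehicle). In Cd83 the response to tau had opposite signs, 0.26 in Cgas+/+ and -0.29 in Cgas-/- cells. Pdcd1lg2 was left out of the check by Dixon's criterion for hippocampal values that stand apart within their own group. No other member had such a value.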

How the results depend on the processing

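In microglia the number of members called stayed within 1.5 times the reported one in the 10 comparisons under DESeq2, RLE scaling, no filter on low counts, library totals, only the compared groups and each library left out. Same-numbered libraries were not paired by the check of their deviations, and with the replicate number as a replicate block the counts were the reported ones, 3 with tau and 4 with HT-DNA in Cgas+/+ cells, 2 with tau in Cgas-/- cells, 4 and 5 for the interactions, and no member's call changed. Without a minimum fold change they were 5 (tau, Cgas+/+), 4 (tau against HT-DNA), 4 (tau, Cgas-/-), and, between genotypes, 5 with vehicle, 5 with tau and 6 with HT-DNA, since fold changes under 1 then count, and these fits called 3829, 4768, 2282, 7110, 7022 and 8646 of all 13675 genes. Without a filter the Cd69 interaction with tau was called at 0.68.

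In hippocampi 2 members were called with DESeq2, RLE scaling, no filter or library totals, Cd86 being the second, and 0 with the microglial markers as a covariate (Cd274 0.64), where 10 of all genes were called. RLE scaling, no filter and library totals called 231, 322 and 309 of all genes, against 223 in the main fit. Leaving out 1 mouse gave 0 to 3 members. The fits with 0 called 14 to 25 of all genes, and that with 3 called 652. Cd274 was not called without P301S mouse 29, 36 or 65 or Ntg mouse 35, 46, 61, 62, 68 or 71 (1.14 to 1.33 in these, 1.14 to 1.43 over all 13 fits). Without P301S mouse 43, 3 members were called, Cd83 (0.62) included, and without mouse 63, 2 were. DESeq2 called 583 of all hippocampal genes, against 223. The mean difference of Cd69 was 0.134 to 0.240 CPM with 1 mouse left out, and its exact permutation p was 0.0606 without any Ntg mouse. The cause of these changes was not tested.

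Signs turned only in differences that were not called. With only the compared groups Cd86 with HT-DNA in Cgas-/- cells was -0.0029. With library totals it was -0.022, Cd86 with tau there -0.029, and Cd80 with HT-DNA in Cgas+/+ cells -0.057. With 1 library left out, Cd40 at rest between genotypes ranged from -0.58 to 0.039, Cd40 with HT-DNA in Cgas-/- cells from -0.18 to 0.024, Cd40 in hippocampi from -0.17 to 0.10 (the filter kept it in 7 of the 13 fits), Cd80 between tau and HT-DNA from -0.059 to 0.13, Cd80 with tau in Cgas-/- cells from -0.031 to 0.15, and Cd86 in Cgas-/- cells from -0.043 to 0.060 with tau and -0.056 to 0.051 with HT-DNA. Library totals moved the median of all genes by -0.21 with HT-DNA and -0.09 with tau in Cgas+/+ cells, 0.13 between them, and 0.20 between genotypes with HT-DNA. The higher share of calls then went from 65.4% to 41.0%, 84.6% to 74.5%, 54.4% to 70.7% and 34.8% to 51.1% in these comparisons, and from 52.2% to 67.7% and 51.1% to 76.8% for the interactions with tau and HT-DNA. Depth limits Pdcd1lg2 in both tissues and Cd40, Cd80 and Cd69 in hippocampi.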
